A study of Mus musculus with 10 samples.

Results

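The genes described here encode the proteins of the cytosolic ribosome. They were taken as the protein-coding rows of the count table whose mouse symbol is Rpsa, Rplp0, Rplp1 or Rplp2, or is Rpl or Rps followed by a number, without pseudogenes and without the Rps6k kinases, and with at least 1 CPM (a count relative to the total of its library) in at least 5 libraries. Of the 53465 rows, 82 met this rule, 49 named for the large subunit and 33 for the small subunit. All 82 were among the 13203 genes tested. The study sequenced total RNA of peritoneal macrophages kept in standard culture without further treatment, from mice aged 6 to 8 weeks. The groups were Mac-GsαKO mice (KO, 5 libraries), which by their name lack Gsα in macrophages, and CTR mice (5 libraries). The sources used here do not give the driver of the deletion, the alleles carried by CTR mice or the strain. Whether the libraries of a group stem from separate mice is not stated, so the spread they show may be technical.

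The ribosome joins a small subunit, which decodes the messenger RNA, to a large subunit, which forms the peptide bond. Its protein genes are expressed in all cells, and many of their messenger RNAs begin with a 5′ terminal oligopyrimidine (TOP) tract, through which mTOR signalling and Larp1 control their translation. Ribosomal protein genes have left many processed pseudogenes in mammalian genomes, and some members have paralogs that can replace them in the ribosome.

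The Rps27 family is shown because it holds both situations. Rps27rt, a retrotransposed copy annotated as coding, has the same 252 coding bases as Rps27 without the stop codon, so the reads of the coding part cannot be told apart. Rps27l, a paralog known as a target of p53, matched Rps27 at 192 of the 252 bases (76.2%). The coding sequences are those of GENCODE M21 on GRCm38, 5′ to 3′, with Rps27 on the minus strand of chromosome 3 and Rps27l on the plus strand of chromosome 9, and capitals mark the 60 bases of Rps27l that differ from Rps27.
Rps27: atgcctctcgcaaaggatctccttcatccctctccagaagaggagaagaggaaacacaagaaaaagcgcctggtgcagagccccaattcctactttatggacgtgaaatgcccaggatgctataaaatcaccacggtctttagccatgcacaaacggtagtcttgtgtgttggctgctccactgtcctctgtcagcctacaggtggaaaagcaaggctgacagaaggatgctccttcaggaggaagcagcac
Rps27l: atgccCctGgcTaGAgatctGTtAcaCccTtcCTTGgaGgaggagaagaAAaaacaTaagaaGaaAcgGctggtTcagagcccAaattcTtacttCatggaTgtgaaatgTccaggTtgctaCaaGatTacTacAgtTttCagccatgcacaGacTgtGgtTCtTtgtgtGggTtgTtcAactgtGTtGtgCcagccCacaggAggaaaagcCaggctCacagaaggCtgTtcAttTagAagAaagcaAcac

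Gnas, which encodes Gsα, averaged 40.2 ± 2.62 CPM in KO and 435 ± 62.4 CPM in CTR (SD, n = 5 each), and the groups did not overlap (two-sided exact permutation p = 0.00794, the smallest this design can give). Library totals were 16877249 to 19235777 counts in KO and 15664243 to 18028974 in CTR, and the floor of 3 counts per library equalled 0.156 to 0.192 CPM for counting error only. All 8 macrophage markers were tested, and their summed level was 14620 to 16142 CPM in KO and 30042 to 38429 CPM in CTR, a sum dominated by Lyz2, which fell. Of the 8 markers 2 rose and 1 fell by edgeR, 5 were higher in value in KO, and their median log2 fold change was 0.14. B cell markers summed to 4.29 to 8.69 CPM in KO and 1.68 to 5.53 CPM in CTR, and T and NK cell markers to at most 1.22 CPM in KO and 1.89 CPM in CTR. Neutrophil markers summed to 51.0 to 76.8 CPM in KO and 60.3 to 123 CPM in CTR, with Ly6g at 0. Mast cell markers summed to 1.39 to 17.7 CPM in KO and 3.11 to 28.0 CPM in CTR, eosinophil markers to 4.46 to 9.85 CPM in KO and 3.65 to 7.77 CPM in CTR, and mesothelial and fibroblast markers to 43.7 to 56.2 CPM in KO and 28.4 to 125 CPM in CTR. Erythroid markers reached 0.117 CPM in KO and 0.339 CPM in CTR. The part of other cells in the results was not tested. In bulk RNA, fewer cells of a type and less RNA per cell cannot be told apart.

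The ribosomal protein rows held little of the counts, and their levels were very uneven. They held 1.16 ± 0.0483% of the counts in KO and 1.15 ± 0.193% in CTR (SD, n = 5 each). By the deposited FPKM, a level per gene length as the authors computed it, the member with the highest mean was Rplp1 at 1146, a protein of the stalk that recruits elongation factors. Rps27rt followed at 587 and Rpl8 at 491. The median member had 27.9 FPKM, and the lowest were Rpl36a at 0.701, Rps27 at 0.577 and Rps13 at 0.151 FPKM. Rps29, a core protein of the small subunit, did not reach the CPM minimum, with 6 to 13 counts in KO and 11 to 21 counts in CTR. The other coding rows under the minimum were Rpl3l with at most 6 counts, Rpl39l with at most 3 and Rpl10l with 0 in every library. The authors' gene lengths had a median of 2933 bases over the members, against 767.5 bases for the principal transcript of the same genes.

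Near-identical pseudogene rows held more counts than the genes themselves. The search by sequence covered rows annotated or named as pseudogenes, so copies annotated otherwise could not be found. It matched 949 rows of the table, 938 of them processed pseudogenes, to the coding sequence of a member, and 563 of these had at least 1 count. They held 1.35 ± 0.0657% of the counts in KO and 1.37 ± 0.226% in CTR (SD, n = 5 each). For 40 members the matching rows held more than the member's own row, and 20 members had under 10% of the joint count in their own row. Matching rows were found for 77 members, and the matches of Rps27 were assigned to the identical Rps27rt.

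Rps13 averaged 1.14 ± 0.375 CPM in KO and 1.404 ± 0.362 CPM in CTR (SD, n = 5 each), while its matching rows averaged 247 ± 20.6 CPM in KO and 218 ± 48.2 CPM in CTR. One of them, Rps13-ps2, is identical to the Rps13 coding sequence and alone averaged 133 CPM over the 10 libraries. Rpl10 had 2.86% of its joint count in its own row, and the identical Rpl10-ps1 averaged 610 ± 47.2 CPM in KO and 650 ± 115 CPM in CTR. Rps12 had 1.44% in its own row. Rps12-ps3, also identical but annotated as protein-coding in spite of its name, averaged 384 ± 14.2 CPM in KO and 458 ± 97.4 CPM in CTR. At the other end, 20 members had over 90% of the joint count in their own row, among them Rps3, Rpl4 and Rpl8. Rps27 is also among these 20, since its identical copy Rps27rt is itself a member and was not counted as a matching row. Per kilobase of the principal transcript, the member at the 90th percentile had 30.4 times the CPM of the member at the 10th, and 4.55 times with the matching rows added. How the authors' counting divided reads between a gene and its copies was not stated, so a value of 1 row can be part of a gene's signal or hold signal of its copies.

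**Figure D1:**
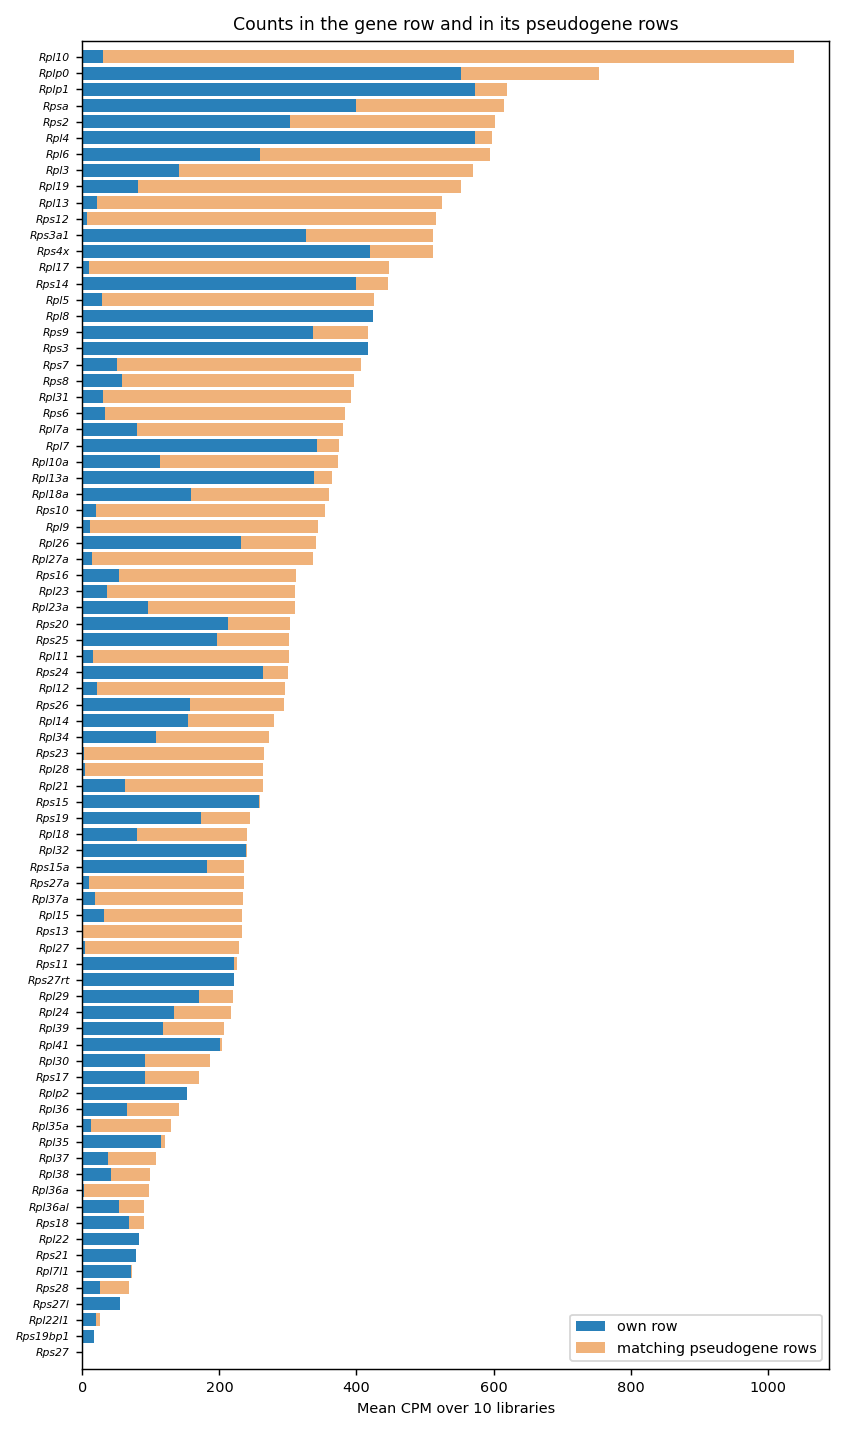
Mean CPM over the 10 libraries (x axis) in the own row of each member plotted (blue) and in its matching rows, mostly pseudogenes (orange, stacked), ordered by the sum. Rpl10 and Rps12 lie mostly in matching rows, while Rpl4, Rpl8 and Rps3 lie almost wholly in their own.

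With all libraries the number of members that passed depended on the test. Of the 82 members, 1 rose (Rpl22l1) and 3 fell (Rps27l, Rps7 and Rpl11) in KO at an adjusted p under 0.05 by edgeR's quasi-likelihood test with Benjamini-Hochberg adjustment, beside 1.83% of all genes tested that rose and 2.11% that fell. These shares are near the background and are not a result about the family. On the same 10 libraries DESeq2 called 4 members higher and 9 lower, beside 4.53% and 5.23% of all genes, and limma voom with quality weights called 25 higher and 6 lower, beside 7.77% and 6.76% of all genes, with a median log2 fold change of 0.17. In the edgeR fit the median log2 fold change was -0.01, against -0.01 over all genes tested, and 40 members were higher and 42 lower in value. Without KO 2, 0 members passed in either direction. The large subunit members had a median of 0.08 and the small subunit members a median of -0.11. All KO libraries lay above all CTR libraries for 1 member, beside 3.25% of all genes. They lay below all CTR libraries for 7 members, beside 4.55% of all genes: Rpl11, Rpl41, Rps27l, Rps27rt, Rps15a and the 2 rows that meet the rule by symbol but encode no ribosomal protein, Rps19bp1 and Rpl7l1.

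The CTR libraries fell apart in this family. The members held 1.19, 1.19, 1.14, 1.19 and 1.08% of the counts in KO 1 to 5, and 1.05, 0.985, 1.01, 1.41 and 1.31% in CTR 1 to 5. CTR 4 and CTR 5 lay above all KO libraries, and CTR 1 to CTR 3 lay below them. CTR 4 was the highest of the 10 libraries for 46 members and CTR 5 for 18, and 1 of them was the highest CTR library for 80 of the 82. These counts were not made over all genes, so whether they are particular to the family was not tested. The matching rows held 1.42, 1.36, 1.34, 1.38 and 1.24% in KO 1 to 5 and 1.25, 1.18, 1.20, 1.70 and 1.51% in CTR 1 to 5. There too CTR 4 and CTR 5 lay above all KO libraries, while CTR 1 overlapped KO 5. Genes under 2000 bases held 14.8 to 15.8% of the counts in KO, 16.4 to 16.9% in CTR 1 to CTR 3, 20.1% in CTR 4 and 17.8% in CTR 5. CTR 4 had 17894 genes with a count, against 18479 to 18652 in the other CTR libraries. With each library corrected for a trend on gene length and GC content, 2 members rose and 5 fell, beside 1.76% and 2.65% of all genes. The part of the number of genes detected was not tested.

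**Figure D2:**
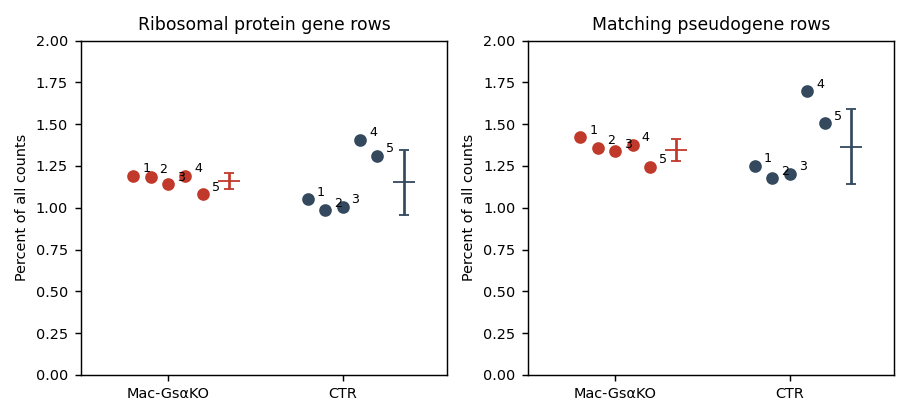
Percent of all counts in each library held by the 82 members (left) and by their matching rows (right), with replicate numbers beside the points and mean ± SD (n = 5) at the side. CTR 4 and CTR 5, at 1.41% and 1.31% for the members, lie above the 5 KO libraries in both panels, and CTR 1 to CTR 3 lie below them in the left panel.

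Without CTR 4 and CTR 5, many members were higher in KO. In that fit 24 members rose, beside 5.13% of all genes, and 4 fell (Rps27l, Rpl11, Rps7 and Rpl41), beside 3.63% of all genes, by edgeR's quasi-likelihood test with Benjamini-Hochberg adjustment. The median log2 fold change was 0.20. Of the large subunit members 15 rose and 2 fell, and of the small subunit members 9 rose and 2 fell. All KO libraries lay above CTR 1 to CTR 3 for 33 members, beside 10.1% of all genes, and below them for 7, beside 9.88% of all genes. Since the libraries left out were the highest CTR libraries for most members, leaving them out raises the KO to CTR ratio by construction, and the 24 calls are not independent of that choice.

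Rpl35, of the large subunit, is an example. Its level was 135, 136, 147, 136 and 127 CPM in KO 1 to 5, and 71.0, 79.5, 57.7, 124 and 137 CPM in CTR 1 to 5. CTR 5 lay within the KO range. CTR 4 lay just below the lowest KO library, and CTR 1 to CTR 3 lay far below it. Its log2 fold change was 0.54 (SE 0.20, adjusted p = 0.150) with all libraries and 0.98 (SE 0.10, adjusted p = 0.00201) without CTR 4 and CTR 5, by edgeR's quasi-likelihood test. Rps18, of the small subunit, averaged 77.7 ± 3.84 CPM in KO and 59.7 ± 18.7 CPM in CTR (SD, n = 5 each), with log2 fold changes of 0.38 (adjusted p = 0.208) and 0.68 (adjusted p = 0.00238) in the same edgeR fits. Both genes were chosen after their values were seen. Leaving out CTR 4 and CTR 5 raises their ratios by construction, so the lower p-values depend on that choice.

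**Figure D3:**
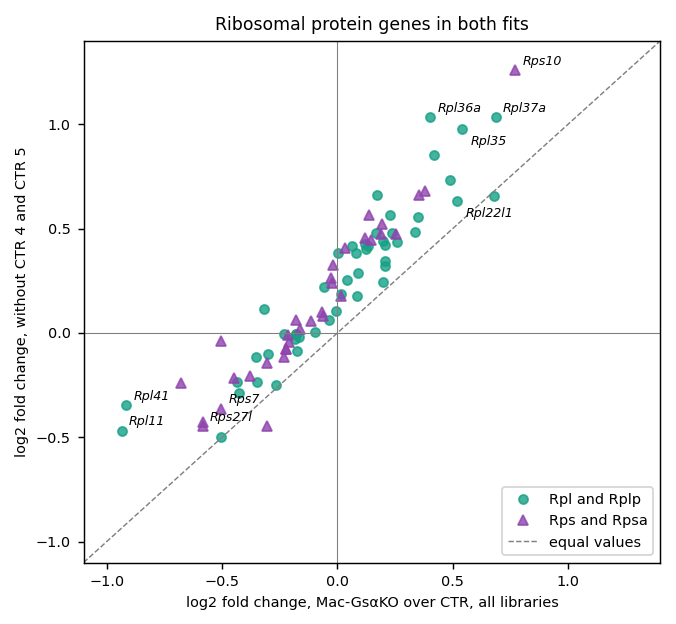
Fitted log2 fold change of each member, Mac-GsαKO over CTR, with all libraries (x axis) and without CTR 4 and CTR 5 (y axis), with large subunit members as circles and small subunit members as triangles. Most points lie above the dashed line of equal values, with a median of 0.20 on the y axis and -0.01 on the x axis, while Rps27l, Rps7, Rpl11 and Rpl41 stay below 0 in both.

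Rps27l was lower in KO. It had 45.0, 42.1, 47.1, 40.6 and 45.4 CPM in KO 1 to 5, against 59.5, 62.0, 58.7, 80.6 and 69.3 CPM in CTR 1 to 5. The highest KO library lay below the lowest CTR library. The log2 fold change was -0.58 (SE 0.10, adjusted p = 0.0139, edgeR's quasi-likelihood test) with all libraries and -0.45 (adjusted p = 0.00689) without CTR 4 and CTR 5. It passed in 21 of 23 other settings, with adjusted p-values up to 0.0644, and among the libraries left out in turn the call was lost without KO 2 (adjusted p = 0.0529). Its 4 matching rows held no counts, so its value does not depend on adding them.

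Rpl22l1, the paralog of Rpl22, was higher in KO. It had 27.1, 21.3, 23.1, 21.8 and 24.9 CPM in KO 1 to 5, against 14.9, 14.8, 16.1, 18.4 and 18.5 CPM in CTR 1 to 5. All KO libraries lay above all CTR libraries. The log2 fold change was 0.52 (SE 0.11, adjusted p = 0.0258, edgeR's quasi-likelihood test), and 0.45 (adjusted p = 0.0553) with its 3 matching rows added. It passed in 16 of 23 other settings, and the call was lost without KO 1, KO 2, KO 4, CTR 1 or CTR 3 (adjusted p up to 0.0726). Rpl22 itself averaged 91.6 ± 28.3 CPM in KO and 72.6 ± 10.1 CPM in CTR (SD, n = 5 each), with an adjusted p of 0.321 in the same edgeR fit.

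Rps7 and Rpl11, proteins known to bind Mdm2 when ribosome assembly is disturbed, were lower in KO in their own rows. Rps7 had 39.4, 40.1, 41.2, 37.8 and 50.03 CPM in KO 1 to 5, against 54.9, 48.6, 57.4, 69.4 and 65.1 CPM in CTR 1 to 5. KO 5 overlapped CTR 2. The log2 fold change was -0.50 (SE 0.11, adjusted p = 0.0347, edgeR's quasi-likelihood test), and the call was lost without KO 1, KO 2, KO 3, KO 4, CTR 3 or CTR 5 (adjusted p up to 0.101). Its own row held 12.4% of the joint count, and with 12 matching rows added the log2 fold change was -0.08 (adjusted p = 0.693, edgeR).

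Rpl11 had 10.2, 9.07, 10.0, 10.4 and 12.6 CPM in KO 1 to 5, against 14.2, 15.0, 14.3, 30.5 and 26.2 CPM in CTR 1 to 5. The groups did not overlap, and CTR 4 and CTR 5 lay far above the other CTR libraries. The log2 fold change was -0.94 (SE 0.22, adjusted p = 0.0406, edgeR's quasi-likelihood test) with all libraries and -0.47 (adjusted p = 0.0316) without CTR 4 and CTR 5, and the call was lost without the same 6 libraries as for Rps7 (adjusted p up to 0.113). Its own row held 5.06% of the joint count. With 9 matching rows added, Rpl11 averaged 311 ± 26.4 CPM in KO and 292 ± 78.4 CPM in CTR (SD, n = 5 each), a log2 fold change of 0.09 (adjusted p = 0.780, edgeR), and of 0.41 (adjusted p = 0.0216) without CTR 4 and CTR 5. CTR 4 and CTR 5 had the highest joint values of the CTR libraries, at 385 and 370 CPM, so leaving them out raises that ratio by construction. With all libraries the sign of Rpl11 turned with the rows counted, but the joint value did not pass.

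**Figure D4:**
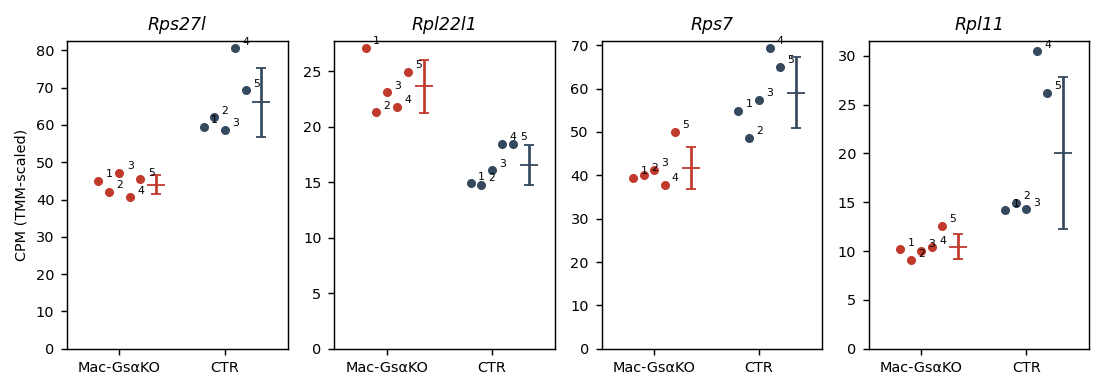
CPM on TMM-scaled library sizes of the 4 members that passed the test, per library with replicate numbers, and mean ± SD (n = 5) at the side of each group. Rps27l, Rpl22l1 and Rpl11 show no overlap between Mac-GsαKO and CTR, and KO 5 of Rps7, at 50.03 CPM, lies above CTR 2 at 48.6 CPM.

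With the matching rows added to every member, 0 members rose and 4 fell (Rpl36a, Rps28, Rps27l and Rpl39) by edgeR's quasi-likelihood test, beside 1.69% of all genes that rose and 1.84% that fell. In that fit 18 of the 82 members had an unadjusted p under 0.05 in either direction, beside 2808 of 12961 genes, a similar share. Of the 4 members that passed on their own rows, 1 passed here (Rps27l), and 23 of the 82 members had the other sign. Rpl36a had 2.10% of the joint count in its own row, where its log2 fold change was 0.40 (adjusted p = 0.511, edgeR), against -0.82 (adjusted p = 0.0261) with the matching rows. Rpl39 averaged 121 ± 12.2 CPM in KO and 114 ± 20.04 CPM in CTR in its own row, and 169 ± 29.2 CPM in KO and 244 ± 35.9 CPM in CTR with the matching rows (SD, n = 5 each). Of these rows Rpl39-ps alone averaged 44.0 ± 21.3 CPM in KO and 124 ± 13.9 CPM in CTR, a log2 fold change of -1.50 (adjusted p = 0.0146, edgeR). 

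The matching rows, tested one by one, also moved in both directions. Of the 242 that could be tested, 13 rose and 27 fell by edgeR's quasi-likelihood test, beside the 1.83% and 2.11% of all genes, which makes 5.37% and 11.2% of these rows, with a median log2 fold change of -0.07. Of 101 tested pseudogenes named after a ribosomal protein, 6 rose and 6 fell, 5.94% in each direction. Rpl35a-ps3 averaged 1.92 ± 0.267 CPM in KO and 8.99 ± 5.99 CPM in CTR (SD, n = 5 each), a log2 fold change of -2.22 (adjusted p = 0.0110, edgeR) and of -1.60 (adjusted p = 0.00247) without CTR 4 and CTR 5. Rpl7a-ps3 averaged 9.61 ± 1.56 CPM in KO and 4.60 ± 1.01 CPM in CTR, a log2 fold change of 1.06 (adjusted p = 0.0132, edgeR). Both pseudogenes and Rpl39-ps passed with each library left out in turn. Without CTR 4 and CTR 5, 23 members rose and 4 fell with the matching rows added to them, beside 4.67% and 3.18% of all genes. Of these 23, 15 had also risen on their own rows. Both fits leave out the same libraries, a choice that raises the ratio of most members by construction. The joint counts also hold the own rows, so the 2 results are not independent.

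The other members with the largest fold changes did not pass the test with all libraries. Rpl41, a peptide-sized protein of the large subunit, had 125 to 156 CPM in KO and 176 to 493 CPM in CTR, with the 2 highest values in CTR 4 and CTR 5 (log2 fold change -0.91, SE 0.26, adjusted p = 0.0711, edgeR). Rps10 averaged 24.9 ± 7.56 CPM in KO and 14.6 ± 6.15 CPM in CTR, Rpl37a averaged 22.1 ± 4.44 CPM in KO and 13.7 ± 4.97 CPM in CTR, and Rpl17 averaged 12.2 ± 3.38 CPM in KO and 7.64 ± 1.14 CPM in CTR (SD, n = 5 each). These 3 rows held 2.22 to 7.63% of their joint counts, and all 3 turned to lower values in KO with the matching rows added. Rps27rt averaged 177 ± 30.6 CPM in KO and 265 ± 65.5 CPM in CTR, while the identical Rps27 had 1.54 ± 0.214 CPM in KO and 1.81 ± 0.567 CPM in CTR.

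Members with known roles beside the core did not pass either. Rplp0, which anchors the stalk, averaged 520.6 ± 11.4 CPM in KO and 584 ± 80.3 CPM in CTR. Rplp1 averaged 619 ± 43.6 CPM in KO and 526 ± 113 CPM in CTR, and Rplp2 averaged 153 ± 19.2 CPM in KO and 152 ± 48.4 CPM in CTR (SD, n = 5 each). Of these, Rplp1 had an adjusted p of 0.323 (edgeR) with all libraries. Rplp1 rose without CTR 4 and CTR 5 (log2 fold change 0.48, adjusted p = 0.00974, edgeR), a choice that raises its ratio by construction. Rps6, the substrate of the S6 kinases, had 30.3 ± 4.71 CPM in KO and 34.97 ± 5.50 CPM in CTR in its own row. Rps27a, made as a fusion with ubiquitin, had 10.9 ± 2.07 CPM in KO and 9.90 ± 2.64 CPM in CTR in its own row. Both rows held under 10% of their joint counts. With the matching rows added, Rps6 averaged 342 ± 16.8 CPM in KO and 426 ± 74.7 CPM in CTR. The highest KO library, at 362 CPM, lay below the lowest CTR library, at 368 CPM. The joint value of Rps6 did not pass (log2 fold change -0.32, adjusted p = 0.128, edgeR). Nor did that of Rps27a (log2 fold change 0.08, adjusted p = 0.747, edgeR). Rpsa, also known as the laminin receptor, averaged 347 ± 45.5 CPM in KO and 451 ± 87.7 CPM in CTR (log2 fold change -0.38, adjusted p = 0.125, edgeR).

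Of the paralog pairs, Rpl36al averaged 55.2 ± 9.72 CPM in KO and 50.3 ± 13.4 CPM in CTR, while Rpl36a had 2.33 ± 0.301 CPM in KO and 1.77 ± 1.05 CPM in CTR (SD, n = 5 each). Rpl3, whose paralog Rpl3l is best known from muscle, averaged 151 ± 11.7 CPM in KO and 131 ± 25.03 CPM in CTR. Its adjusted p was 0.358 (edgeR) with all libraries. Rpl3 rose without CTR 4 and CTR 5 (log2 fold change 0.42, adjusted p = 0.0141, edgeR), a choice that raises its ratio by construction. Rps28, of the small subunit, averaged 19.3 ± 4.015 CPM in KO and 30.8 ± 11.6 CPM in CTR (log2 fold change -0.68, adjusted p = 0.113, edgeR). Both rows that encode no ribosomal protein had lower values in KO without passing. Rps19bp1, known as a regulator of the deacetylase Sirt1, had 14.1 to 15.0 CPM in KO and 16.1 to 24.8 CPM in CTR (adjusted p = 0.0807, edgeR), and Rpl7l1 had 59.0 to 68.7 CPM in KO and 71.1 to 85.2 CPM in CTR (adjusted p = 0.0902, edgeR).

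Among RefSeq promoters on GRCm38, 63 members had an entry. A tract of C followed by at least 4 pyrimidines, read on the gene's strand and starting within 10 bases of the annotated start, was present in 37 of the 63 (58.7%) and in 9297 of 27025 genes (34.4%). Within 5 bases of the start, a window added after the first share had been seen, it was present in 30 of the 63 (47.6%) and in 5718 genes (21.2%). Rps27l and Rpl22l1 held it in both windows, Rps7 in the wider one only, and Rpl11 in neither. These are matches of letters near an annotated start, not measured transcript starts.

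Genes that work with the ribosome changed in small numbers, set beside the same 1.83% higher and 2.11% lower over all genes. At an unadjusted p under 0.05 the shares over all genes were 10.04% higher and 11.9% lower, and by DESeq2 4.53% higher and 5.23% lower. Of 16 translation factors and other TOP genes, 1 rose and 0 fell by edgeR, with 2 at an unadjusted p under 0.05 in each direction, and DESeq2 called 2 higher and 1 lower. Eef2, the factor that moves the ribosome along the messenger RNA, averaged 1792 ± 134 CPM in KO and 1430 ± 61.7 CPM in CTR (log2 fold change 0.33, adjusted p = 0.0388, edgeR), and passed in 2 of the 10 fits that left out 1 library, those without KO 5 and CTR 4. Of 19 genes that control ribosomal protein synthesis, 1 rose and 0 fell by edgeR, with 3 higher and 1 lower at an unadjusted p under 0.05, and DESeq2 called 2 higher and 1 lower. Rptor, the mTORC1 subunit that binds its substrates, averaged 65.8 ± 5.98 CPM in KO and 47.9 ± 7.05 CPM in CTR (log2 fold change 0.46, adjusted p = 0.0443, edgeR), and passed in 1 of the 10 fits, that without CTR 1.

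Of 38 ribosome biogenesis genes, 0 rose and 2 fell by edgeR, beside 2.11% of all genes that fell. At an unadjusted p under 0.05 these were 0 and 12, beside 11.9% of all genes lower, and DESeq2 called 0 higher and 5 lower, beside 5.23% of all genes lower. The median was -0.19, and 35 of the 38 were lower in value, beside 6713 of 13203 genes. Nop14, of the small subunit processome, averaged 22.6 ± 1.19 CPM in KO and 30.5 ± 3.05 CPM in CTR (log2 fold change -0.43, adjusted p = 0.0277, edgeR), and lost its call without KO 1, KO 2, KO 4 or CTR 3 (adjusted p up to 0.0804). Ebna1bp2, which works in large subunit assembly, averaged 22.4 ± 2.49 CPM in KO and 32.0 ± 4.38 CPM in CTR (log2 fold change -0.51, adjusted p = 0.0335, edgeR), and lost its call without KO 1, KO 2, KO 3, KO 4, CTR 3 or CTR 5 (adjusted p up to 0.101). Without CTR 4 and CTR 5 the median of this list was -0.09, and 26 of the 38 were lower in value, beside 6603 of 13203 genes. In that fit 2 fell, beside 3.63% of all genes, which is near the background. Of 7 ribosome quality control genes 0 passed by edgeR or DESeq2, with 2 at an unadjusted p under 0.05.

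Of 78 mitochondrial ribosomal proteins, 0 rose and 6 fell by edgeR, beside 2.11% of all genes that fell. At an unadjusted p under 0.05 these were 0 and 26, beside 11.9% of all genes lower, and DESeq2 called 0 higher and 15 lower, beside 5.23% of all genes lower. Their median was -0.19 with all libraries and -0.04 without CTR 4 and CTR 5. Mrpl52 averaged 19.3 ± 1.304 CPM in KO and 38.8 ± 11.7 CPM in CTR (log2 fold change -1.01, adjusted p = 0.0132, edgeR), and its adjusted p was 0.05001 without KO 2, just over the threshold. Fau, a ribosomal protein made as a fusion outside the symbol rule, and the ribosome-bound Rack1 did not pass with all libraries by edgeR or DESeq2. Fau averaged 207 ± 18.6 CPM in KO and 173 ± 39.2 CPM in CTR, and rose without CTR 4 and CTR 5 (log2 fold change 0.49, adjusted p = 0.0188, edgeR). Both were its highest CTR libraries, so leaving them out raises that ratio by construction. Rack1 averaged 527 ± 43.5 CPM in KO and 539 ± 71.8 CPM in CTR (SD, n = 5 each).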

How the data were processed

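Bulk RNA sequencing covered 5 Mac-GsαKO and 5 CTR libraries of macrophages. The deposited table gives, for each Ensembl gene, whole-number counts that are not normalized, beside FPKM values that the authors made. Over genes with at least 50 counts the deposited FPKM equalled the counts divided by a gene length and the library total, with a relative deviation of at most 9.65e-06. CASAVA 1.8, HISAT2, SAMtools 1.3.1, edgeR and the build GRCm39 are named per the submitters' processing notes. The read counter, its handling of reads that map to several places, the annotation and the strand setting were not given in the sources used here. All 20 columns were assigned to samples. Symbols were matched for 53274 of 53465 identifiers.

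Counts were fitted in R 4.3.3 with edgeR 4.0.16. After filterByExpr, 13203 genes with 99.9% of the counts stayed in the fit, and TMM set the library scaling. The quasi-likelihood test was two-sided with genotype as its term. Benjamini-Hochberg adjustment ran over the 13203 genes, and an adjusted p under 0.05 counted as called. CPM are counts scaled to a common library total, with TMM factors. Gnas was also compared by an exact permutation test. The test was checked on simulated data. There it called 33 of 99 genes changed 1.5-fold and 69 of 100 changed 2-fold, with 2 false calls. Changes of this size can thus go uncalled.

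Gene types, transcripts and coding sequences came from GENCODE M21 on GRCm38, another build than the authors', so no genome positions are given. Pseudogene transcripts were matched to coding sequences with BLAST 2.17.0 at 90% identity or more over at least 50% of the coding sequence, each to its best match. Starts were read from RefSeq promoters on GRCm38.

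The members and gene lists were chosen with earlier results of these data known. Gnas was named whatever its result. The members named were those that passed the test, the 3 largest and 3 smallest fold changes, the 3 highest and 3 lowest FPKM, Rpsa, the stalk proteins, Rps6, Rps27a, the paralog pairs and both rows that are no ribosomal proteins. Up to 3 called genes of each other list were named, and Fau and Rack1 were named without being called. Some single genes are not reported here and not drawn by name. Rpl35, Rps18, Rps15a, Rps29, Rpl10, Rps12, Rps3, Rpl4, Rpl29 and the named pseudogenes outside this rule were chosen after their values were seen.

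Other settings were scaling by size factors of DESeq2 or by library size, dropping the filter, a CPM minimum, the DESeq2 1.42.0 test, limma 3.58.1 voom with quality weights, a robust fit, the replicate number as a block, each library left out, CTR 4 and CTR 5 left out together, a correction for gene length and GC content (mgcv 1.9.3) and pseudogenes added by symbol. Adding pseudogenes matched by sequence, and a narrower window for the pyrimidine tract, were chosen after seeing the data. No sample label sets CTR 4 and CTR 5 apart, so leaving them out together rests on their values.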

Additional observations from a re-analysis of the deposited data

Results flagged for a closer look

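In 6 of the 88 groups of 5 libraries examined, 1 library lay far from the other 4, and chance flags about 1 in 20 groups. Of these values 3 were in CTR 4.

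Rps7 had 50.03 CPM in KO 5, against 37.8 to 41.2 CPM in the other KO libraries. Fau had 175 CPM in KO 5, against 207 to 220 CPM in the other KO libraries. Rps27rt had 380 CPM in CTR 4, against 227 to 261 CPM in the other CTR libraries, and Rpl39 had 149 CPM in CTR 4, against 99.8 to 111 CPM. Rpl35a-ps3, a pseudogene of Rpl35a, had 19.5 CPM in CTR 4, against 5.30 to 7.92 CPM in the other CTR libraries. Nop14 had 35.9 CPM in CTR 5, against 28.7 to 29.7 CPM in the other CTR libraries.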

How the results depend on the processing

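Counts of calls moved with the setting. The 241 genes higher and 279 lower in KO were 122 and 139 with no filter, 598 and 691 by DESeq2, 1026 and 893 by voom with quality weights, 694 and 491 without CTR 4 and CTR 5, 621 and 423 with matching rows added as well, and between 32 and 484 and between 30 and 384 with 1 library left out. The members called, 1 higher and 3 lower, were 4 and 9 by DESeq2, 25 and 6 by voom, 2 and 5 when corrected for length and GC content, and 24 and 4 without CTR 4 and CTR 5. With matching rows added they were 0 and 4, and 23 and 4 without CTR 4 and CTR 5. With no filter 1 fell, and with pseudogenes added by symbol 5 fell. With 1 library left out, 0 to 3 rose and 0 to 4 fell. The members' median of -0.01 became 0.20 without CTR 4 and CTR 5. Their share of 1.16% in KO and 1.15% in CTR was 1.92% in both with pseudogenes added by symbol, and 2.51% in KO and 2.52% in CTR with matching rows. Equal replicate numbers did not pair the libraries: residuals correlated between -0.126 and 0.0582 and 0 libraries correlated best with their own number. With the replicate block 59 genes rose and 45 fell, and 0 members passed in either direction.

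Over 40 named genes and 23 settings, 32 values of 12 genes turned their sign. With matching rows added, log2 fold changes were 0.0891 for Rpl11, -0.0327 for Rps10, -0.45 for Rpl37a, -0.0474 for Rpl17, 0.18 for Rps13, -0.82 for Rpl36a, -0.53 for Rpl39 and -0.14 for Rpl36al. Without CTR 4 and CTR 5 as well, they were 0.0114 for Rps7, 0.41 for Rpl11, -0.19 for Rpl37a, 0.43 for Rps13, -0.61 for Rpl36a, -0.45 for Rpl39 and 0.0392 for Rack1. With pseudogenes added by symbol they were -0.0323 for Rps10, -0.0471 for Rpl17, 0.18 for Rps13, -0.73 for Rpl36a and -0.53 for Rpl39. Rps27 turned to 0.0122 by voom, and Rack1 to 0.00979 by library size and 0.0372 without CTR 4 and CTR 5. With 1 library left out Rplp2 lay between -0.0986 and 0.13 and Rack1 between -0.0906 and 0.0230. The cause was not tested, beyond the rows or libraries that a setting adds or leaves out. At 1 to 2 CPM, Rps13 and Rps27 rest on few reads.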

Other observations

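Rpl29, chosen after its values were seen, split the KO libraries. It had 108, 212, 76.5, 205 and 101 CPM in KO 1 to 5, against 201, 207, 191, 211 and 188 CPM in CTR 1 to 5. KO 2 and KO 4 lay at the level of CTR, and KO 1, KO 3 and KO 5 lay between 76.5 and 108 CPM. The matching rows of Rpl29 held 43.5 to 65.5 CPM in KO and 39.4 to 55.8 CPM in CTR. In Rpl39-ps the same KO 2 and KO 4 were the lowest, with 25.8 and 25.5 CPM, against 45.3 to 77.7 CPM in the other KO libraries and 109 to 146 CPM in CTR. Rps27rt too had its lowest KO values in KO 2 and KO 4, at 141 and 148 CPM, against 190 to 205 CPM in the other KO libraries. The split among the KO libraries was not tested, and the members that show it were not counted. Between the genotypes, Rpl29 had a log2 fold change of -0.50 (adjusted p = 0.251, edgeR).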
